A study of Sus scrofa with 2 samples.

Results

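Plasminogen activation was described in pig skin through 4 genes: SERPINB2, PLAU, PLAUR and PLAT. They were taken by their symbols from the 31908 features of the count matrices, and all 4 were found. The cells came from full-thickness dorsal skin of healthy male farm pigs, whose age the labels do not give, and were released by enzymatic digestion with warm incubation. The 2 conditions had 1 library each: cells taken fresh, and cells frozen in FBS with DMSO, stored in liquid nitrogen and thawed (called cryopreserved). In both, live cells were enriched before loading on a 10x Genomics 3′ chip, in which each captured transcript carries a unique molecular identifier (UMI). The extraction text of both samples describes freezing, whereas their titles and treatment labels mark 1 as fresh, and neither the labels nor the methods say whether both came from the same animal. A difference between the libraries therefore describes this pair and cannot be told apart from a difference between animals, punches or runs. No test was possible, and the intervals given (exact Poisson for levels, exact binomial for shares, exact conditional for ratios, all at 95%) cover counting error only.

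Plasminogen is a circulating zymogen that is cut to plasmin, a protease that dissolves fibrin and attacks other matrix proteins. PLAU (urokinase) and PLAT (tissue-type plasminogen activator) are the proteases that make the cut. PLAUR is the membrane-anchored receptor that holds urokinase at the cell surface, and SERPINB2 (plasminogen activator inhibitor 2) is a clade B serpin that inhibits both activators and is found largely inside cells. In skin the system is known from wound closure, where migrating keratinocytes carry urokinase and its receptor, and from vessels, where endothelium releases PLAT.

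In the RefSeq annotation of Sscrofa11.1 each of the 4 genes had 1 transcript model. SERPINB2 lay on chr1:157871919-157886525 (minus strand, 8 exons), with SERPINB10 as its neighbour on the left, 5005 bases away. PLAU lay on chr14:76629313-76635173 (plus strand, 11 exons), PLAUR on chr6:50489773-50505453 (minus strand, 7 exons) and PLAT on chr17:11195599-11223821 (minus strand, 16 exons). PLAU shared 3069 bases with CAMK2G and its whole 5861 bases with LOC102160869, both on the other strand, and PLAUR shared 1060 bases with LOC106507601 on the other strand. Counting settings for strand are not given in the sources used here, so reads from such partners may not be fully separated. CAMK2G itself had 420 UMIs in fresh and 345 in cryopreserved fibroblast-like cells, where PLAU had 11346 and 23111.

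The 250 bases before each annotated gene start are printed from the RefSeq sequence, on the strand of the gene, because the 4 genes differed in which cells held their RNA. The start is where the RefSeq gene span begins. No transcription start was mapped, so distances to it and motifs missing from a window depend on that annotation. Capitals mark the motifs that were searched on both strands: AP-1 (TGANTCA), the cyclic AMP response element or CRE (TGACGTCA), the TATA box (TATAAA) and the GC box (GGGCGG). The windows are chr1:157886526-157886775 for SERPINB2, chr14:76629063-76629312 for PLAU, chr6:50505454-50505703 for PLAUR and chr17:11223822-11224071 for PLAT.
SERPINB2: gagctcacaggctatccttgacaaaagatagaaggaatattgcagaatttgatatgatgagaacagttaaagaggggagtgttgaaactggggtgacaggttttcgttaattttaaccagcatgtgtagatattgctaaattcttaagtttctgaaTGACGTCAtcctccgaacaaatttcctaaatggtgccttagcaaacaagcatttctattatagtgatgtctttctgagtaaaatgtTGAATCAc
PLAU: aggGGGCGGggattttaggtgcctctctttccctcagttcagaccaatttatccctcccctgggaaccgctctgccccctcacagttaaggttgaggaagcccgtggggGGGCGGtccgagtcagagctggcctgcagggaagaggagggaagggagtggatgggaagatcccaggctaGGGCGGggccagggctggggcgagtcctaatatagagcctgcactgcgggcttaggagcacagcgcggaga
PLAUR: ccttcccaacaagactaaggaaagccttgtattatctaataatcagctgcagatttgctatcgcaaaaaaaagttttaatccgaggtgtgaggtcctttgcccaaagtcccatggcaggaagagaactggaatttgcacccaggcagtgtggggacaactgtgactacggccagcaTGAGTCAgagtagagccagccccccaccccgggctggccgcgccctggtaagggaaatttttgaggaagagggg
PLAT: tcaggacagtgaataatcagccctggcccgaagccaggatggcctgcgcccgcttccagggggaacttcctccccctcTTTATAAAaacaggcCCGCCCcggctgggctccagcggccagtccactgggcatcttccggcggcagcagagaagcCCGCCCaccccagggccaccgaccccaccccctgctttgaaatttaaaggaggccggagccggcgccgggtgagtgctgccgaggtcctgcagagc
The SERPINB2 window held an AP-1 match from 8 to 2 bases before the start and a CRE match from 94 to 87 bases before it, and 36.4% of its bases were G or C. The PLAUR window held an AP-1 match from 74 to 68 bases before the start (51.6% G or C). PLAU had 3 GC boxes and none of the other motifs (62.8% G or C), and PLAT had 2 GC boxes and a pair of overlapping TATA matches on opposite strands (66.4% G or C). Among 19559 promoter windows of the same length the median G or C content was 57.6%. AP-1 was present in 5.27% of these windows, the CRE in 1.7%, the TATA box in 9.77% and the GC box in 45.9%. A match describes the letters only and is not evidence of a factor at the site.

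The matrices held 4379 fresh and 4860 cryopreserved barcodes, of which 2775 (63.4%) and 4223 (86.9%) lay within the maxima for genes, UMIs and mitochondrial share. These cells held 32274985 and 36687009 UMIs, with medians of 11017 and 7945 per cell, and 6 barcode sequences occurred in both libraries. The cells formed 24 clusters, of which 22 were given to 9 lineages by marker genes. The clustering did not use the 4 genes, the rest of the plasminogen system or the clade B serpins. Marker sums describe this naming and cannot test it, since the same lists gave the names. The 13 keratinocyte markers found reached 40665 and 39854 CPM in keratinocyte-like cells and stayed at or below 823 CPM in each of the other lineages. Other lists were less separate. T or NK markers summed to 2642 and 3405 CPM in T or NK-like cells and to 2515 and 2925 CPM in Langerhans or dendritic-like cells. Blood endothelial markers summed to 4151 and 4370 CPM in blood and to 2552 and 2391 CPM in lymphatic endothelial-like cells. Levels are given as CPM, the UMIs of a gene relative to all UMIs of the lineage or cluster with TMM scaling of the libraries, and the fresh value stands first throughout.

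SERPINB2 RNA was held almost wholly by keratinocyte-like cells. Of its 5262 fresh and 6911 cryopreserved UMIs, 5234 (99.5%, interval 99.23 to 99.65%) and 6822 (98.7%, interval 98.4 to 98.96%) were in this lineage, which held 23.96% and 29.0% of the UMIs of all genes. The level was 668 CPM (649.8 to 686) in 530 fresh and 649 CPM (634 to 665) in 1058 cryopreserved keratinocyte-like cells. The lineage was highest in both libraries and more than 10-fold above the next one, which held for 1.37% of 11692 genes with 200 or more UMIs.

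Outside keratinocytes the counts of SERPINB2 were close to 0. Fibroblast-like cells had 20 and 25 UMIs (1.25 and 1.54 CPM), blood endothelial-like cells 3 and 5, lymphatic endothelial-like cells 1 and 1, mural-like cells 0 and 2, and Langerhans or dendritic-like cells 0 and 2. The mast-like lineage had none in either library. In T or NK-like cells there were 0 fresh UMIs and 39 cryopreserved ones (29.1 CPM), all in 2 of 254 cells, with 26 in the higher. Those cells had a median of 12683 CPM of keratinocyte markers, against 0 in the other T or NK-like cells. The 15 UMIs of cryopreserved macrophage-like cells lay in 3 cells with a median of 7031 CPM of keratinocyte markers, against 0 in the rest, and the 4 fresh ones lay in 1 cell with 19684 CPM. Fibroblast-like cells with a SERPINB2 UMI (14 and 13 cells) were not raised in this way. Their medians of keratinocyte markers were 53.3 and 0 CPM, against 53.5 and 49.2 CPM in the other fibroblast-like cells. Macrophages, a cell type in which SERPINB2 is known as an inducible gene, were thus at 2.71 and 6.78 CPM, and the part of the keratinocyte RNA in these values was not tested.

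Within the keratinocyte-like lineage SERPINB2 was graded. Cluster 2, led by MMP3, CLDN4, AREG and CCL27, had 4004 and 5081 UMIs, or 1297 CPM (1257 to 1338) and 1369.8 CPM (1332 to 1408). It held 76.5% and 74.5% of the lineage's SERPINB2 UMIs in 37.5% and 35.3% of its cells, and 87.4% and 93.0% of its cells had a UMI. The dividing cluster 19 followed at 742 and 752 CPM, and the KRT1- and KRT10-rich cluster 13, with genes of the differentiating layers, at 427 and 375 CPM. Cluster 10 (PTHLH, SOX9) was at 155 and 115 CPM, and cluster 9, with the basal keratin KRT15 and ASCL2, was lowest at 114 and 77.0 CPM. The order of the 5 clusters was the same in both libraries. The intervals of neighbours in it did not overlap, with clusters 10 (134 to 178 and 101 to 131) and 9 (98.8 to 131 and 65.4 to 90.1) the nearest. These intervals leave out the spread between cells, so they do not show that neighbouring clusters are separate. In the fresh library 71 of 103 cells of cluster 10 and 89 of 120 of cluster 9 had no SERPINB2 UMI. The highest single cells had 28 and 36. Cluster 19 had 22 fresh cells, of which 10 had no SERPINB2 UMI, with 44 of its 219 fresh UMIs in the highest cell. Single cells of cluster 2 ranged from 0 to 82 UMIs in the fresh library (median 17) and from 0 to 61 in the cryopreserved library (median 11).

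**Figure D1:**
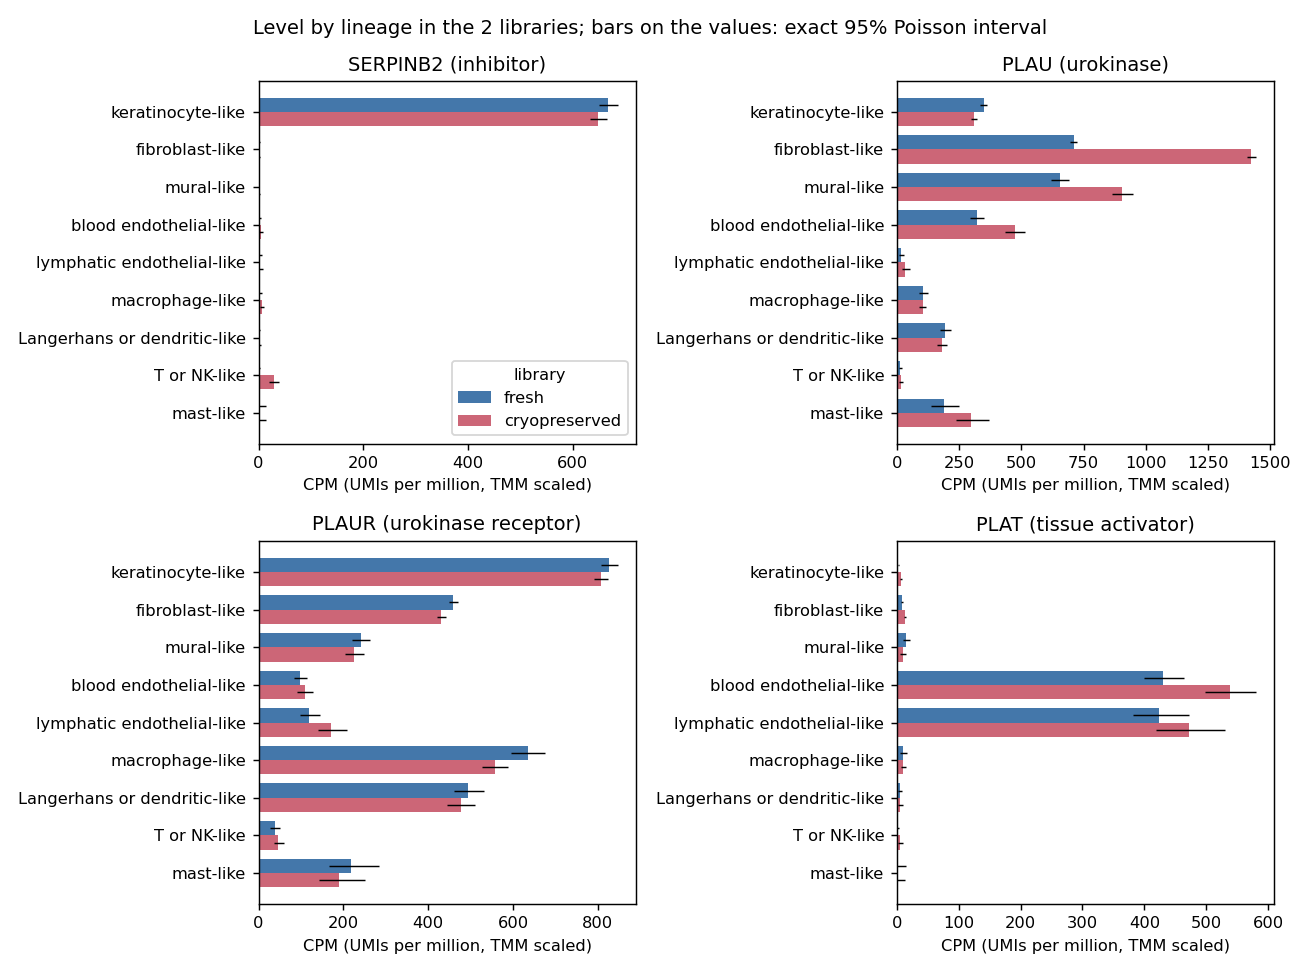
Level of the 4 genes (CPM, horizontal axis from 0) in 9 lineages, with a bar for each library and its exact 95% Poisson interval. SERPINB2 stands almost wholly in keratinocyte-like cells, PLAT in both endothelial lineages, PLAUR in nearly all lineages, and PLAU is highest in fibroblast-like cells, at 709.8 and 1423 CPM.

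**Figure D2:**
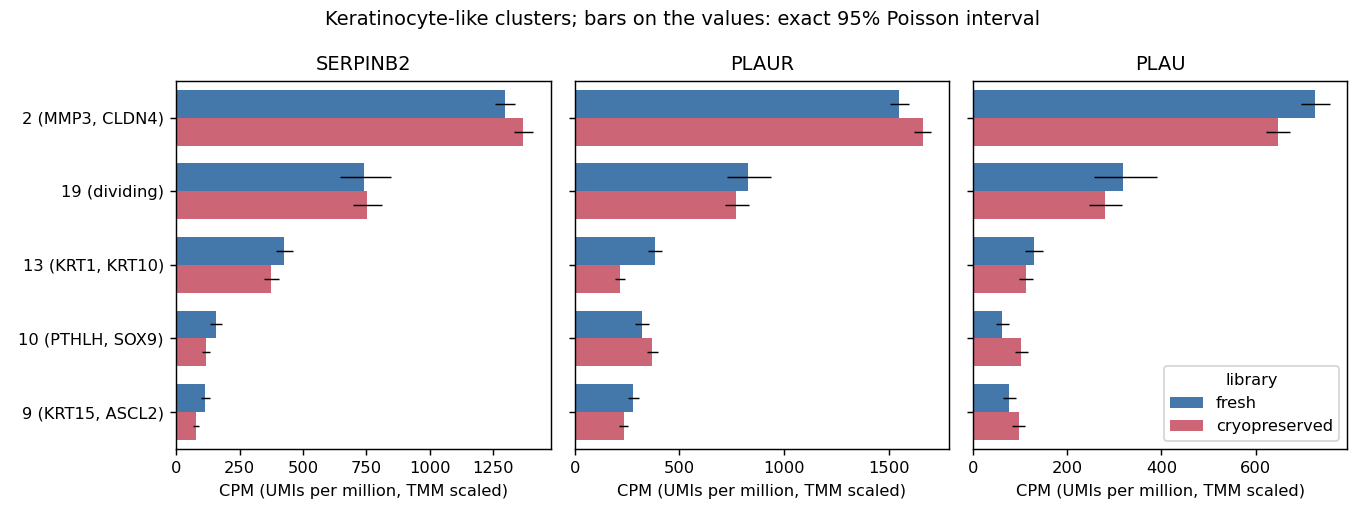
CPM of SERPINB2, PLAUR and PLAU (horizontal axes from 0) in the 5 keratinocyte-like clusters, with a bar for each library and its exact 95% Poisson interval. Cluster 2 is highest for all 3 genes in both libraries.

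Urokinase and its receptor were highest in the same keratinocyte cluster as SERPINB2. PLAU in cluster 2 was 726 CPM (696 to 757) and 647 CPM (621 to 673), against 318 and 279.7 CPM in cluster 19 and at most 129 CPM in clusters 13, 10 and 9. PLAUR in cluster 2 was 1551 CPM (1507 to 1595) and 1661 CPM (1619.7 to 1703), followed by cluster 19 at 827 and 772 CPM. The lower clusters differed in order from those of SERPINB2: PLAUR in cluster 13 was 382 and 215 CPM, in cluster 10 320.0 and 369 CPM and in cluster 9 281 and 233 CPM.

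Within keratinocyte-like cells, detection of the receptor went with detection of the inhibitor. After each cell was thinned to 1000 UMIs (3 fresh and 9 cryopreserved keratinocyte-like cells had fewer and were left out), 30.7% (26.8 to 34.9%) and 32.2% (29.4 to 35.1%) of cells had a SERPINB2 UMI, against 0.165% and 0.0639% in fibroblast-like cells. Unthinned, the shares were 58.3% and 57.5%. PLAUR was found in 58.0% (50.03 to 65.7%) of the 162 fresh cells with a SERPINB2 UMI and in 26.0% (21.6 to 30.8%) of the 365 without one. The cryopreserved shares were 58.0% (52.5 to 63.3%) of 338 cells and 25.3% (22.2 to 28.7%) of 711. Inside cluster 2 the gap was smaller, at 64.3% (54.7 to 73.1%) against 54.0% (43.0 to 64.8%) in the fresh library and 65.2% (58.8 to 71.1%) against 49.2% (40.4 to 58.1%) in the cryopreserved one. The gap had the same direction in both libraries, and its intervals overlapped on the 199 fresh cells and not on the 374 cryopreserved ones. In macrophage-like cells 0 of 147 fresh and 1 of 274 cryopreserved thinned cells had a SERPINB2 UMI, too few to describe co-detection there.

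PLAU went with SERPINB2 across keratinocyte-like cells but not in a constant direction inside cluster 2. It was found in 30.2% of fresh cells with SERPINB2 against 15.6% without, and in 32.0% against 12.5% of cryopreserved cells. In cluster 2 the shares were 33.9% against 37.9% fresh and 37.7% against 29.2% cryopreserved, with overlapping intervals. PLAUR was found in 73.2% (61.4 to 83.1%) of fresh cluster 2 cells with a PLAU UMI against 52.3% (43.3 to 61.2%) without, and in 68.5% (59.7 to 76.3%) against 54.9% (48.4 to 61.3%) of cryopreserved ones. In fibroblast-like cells PLAUR detection hardly differed by PLAU: 37.9% (32.5 to 43.5%) with and 34.6% (31.5 to 37.9%) without in the fresh library, and 38.7% (34.7 to 42.8%) and 34.9% (31.9 to 38.0%) in the cryopreserved one.

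Taken by whole lineages, PLAU was highest in mesenchymal cells. Keratinocyte cluster 2, described above, was near the fibroblast-like lineage in the fresh library and below it in the cryopreserved one. Fibroblast-like cells held 11346 of 16427 fresh UMIs (69.1%, interval 68.4 to 69.8%) and 23111 of 29345 cryopreserved UMIs (78.8%, interval 78.3 to 79.2%), while the lineage held 48.9% and 44.8% of the UMIs of all genes. With equal weight to each lineage, its PLAU shares were 27.8% and 38.0%. The lineage was at 709.8 CPM (697 to 723) and 1423 CPM (1405 to 1442) and was highest in both libraries, a place that fibroblast-like cells had for 7.54% of the 11692 genes. Mural-like cells, the pericytes and smooth muscle around vessels, came next at 654 CPM (618 to 690.5) and 905 CPM (863 to 949). In the fresh library the interval of mural-like cells ended just below that of fibroblast-like cells. The order after that was not the same in both libraries: keratinocyte-like cells (349 and 310.1 CPM) stood above blood endothelial-like cells (321 and 473 CPM) in the fresh library and below them in the cryopreserved one. Mast-like cells were at 188 and 299 CPM, Langerhans or dendritic-like cells at 195 and 179.9 CPM and macrophage-like cells at 107 and 104 CPM. The lowest were lymphatic endothelial-like cells (13 and 20 UMIs, 15.9 and 33.8 CPM) and T or NK-like cells (14 and 21 UMIs, 12.99 and 15.7 CPM).

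PLAU was unevenly spread among fibroblasts. Cluster 6 (SEMA3G, PTX3) was at 1467 and 2236 CPM, cluster 0 (MYOC, FGF10) at 1158 and 2039.6 CPM and cluster 4 (CTHRC1, ASPN) at 1025 and 1863 CPM. These 3 clusters together held most of the lineage's PLAU, with 34.5%, 28.8% and 27.3% of its fresh UMIs in clusters 0, 4 and 6. Cluster 5 (CCL19, LEPR) was at 249.7 and 299 CPM, and the other 3 were lower in both libraries: cluster 18 (COCH, TNN) at 99.8 and 294 CPM, the dividing cluster 21 at 119 and 279 CPM and cluster 1 (WIF1, NT5E) at 108 and 137 CPM. Clusters 5, 18, 21 and 1 were thus below keratinocyte cluster 2 in both libraries. Single cells varied widely. Fibroblast-like cells had from 0 to 212 PLAU UMIs in the fresh library (median 1, upper quartile 8) and from 0 to 238 in the cryopreserved library (median 2, upper quartile 15). PLAUR did not share this pattern, since its 7 fibroblast-like clusters lay between 324 and 562 CPM in the fresh library and between 376 and 555 CPM in the cryopreserved one.

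**Figure D3:**
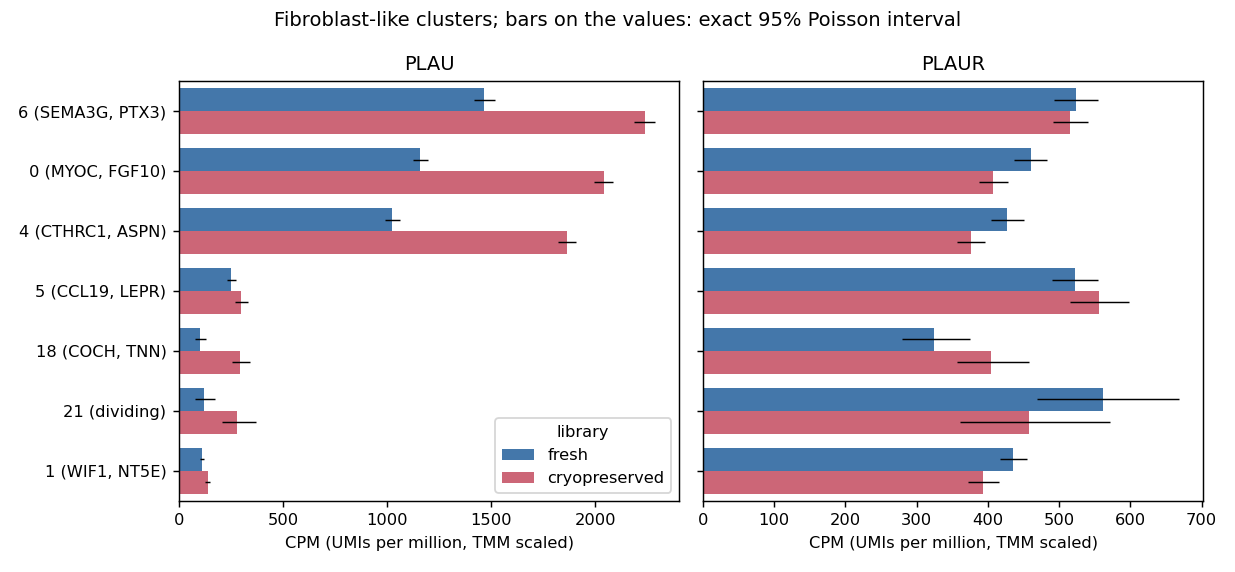
CPM of PLAU and PLAUR (horizontal axes from 0) in the 7 fibroblast-like clusters, with a bar for each library and its exact 95% Poisson interval. PLAU is concentrated in clusters 6, 0 and 4 and is higher in the cryopreserved library in all 7, whereas PLAUR is nearly even.

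PLAUR was found in all 9 lineages. Keratinocyte-like cells were highest, with 6478 and 8483 UMIs or 827 CPM (807 to 847) and 807 CPM (790.3 to 825), as this lineage was for 14.1% of the 11692 genes. They held 39.3% and 45.8% of all PLAUR UMIs, and fibroblast-like cells 44.5% and 37.7%. Macrophage-like cells (635 and 557 CPM), Langerhans or dendritic-like cells (495 and 477 CPM) and fibroblast-like cells (459 and 431 CPM) followed in the same order in both libraries. The keratinocyte-like lineage was uneven: its cluster 2 held 73.9% and 72.6% of its PLAUR UMIs in 37.5% and 35.3% of its cells. Keratinocyte clusters 13, 10 and 9, described above, were below the macrophage-like, Langerhans or dendritic-like and fibroblast-like lineages in both libraries. The Poisson intervals of the Langerhans or dendritic-like cells (461 to 531 and 445 to 510.1) reached those of fibroblast-like cells in the fresh library (448 to 469.6) and not in the cryopreserved one (421 to 441). Mural-like cells were at 241 and 226 CPM, mast-like cells at 219 and 191 CPM, lymphatic endothelial-like cells at 119.5 and 171 CPM and blood endothelial-like cells at 97.5 and 109 CPM. T or NK-like cells were lowest at 38.0 and 47.0 CPM. Thinned cells with a PLAUR UMI made up 35.9% and 35.8% of keratinocyte-like cells, 42.2% and 42.7% of macrophage-like cells, 43.6% (33.7 to 53.8%) and 33.1% (26.1 to 40.8%) of Langerhans or dendritic-like cells, and 2.07% and 3.94% of T or NK-like cells. The 5 top cells held 9.91% and 6.93% of the keratinocyte UMIs. Cluster 23, an unnamed group of 9 fresh and 14 cryopreserved cells, had PLAUR in every cell, at 1274 CPM (1075 to 1499) and 1787 CPM (1544 to 2058). Its best list was that of Langerhans or dendritic cells, with 5 markers raised, but 5 fibroblast markers were raised too. The levels given for Langerhans or dendritic-like cells leave this cluster out.

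PLAT was an endothelial gene in these libraries. Blood endothelial-like cells held 685 of 1236 fresh UMIs (55.4%, interval 52.6 to 58.2%) and 660 of 1278 cryopreserved UMIs (51.6%, interval 48.9 to 54.4%), and lymphatic endothelial-like cells held 348 (28.2%) and 279 (21.8%). The levels were 431 CPM (399 to 464) and 538 CPM (498 to 580.4) in blood endothelial-like cells and 424 CPM (381 to 471) and 472 CPM (418 to 531) in lymphatic endothelial-like cells, with overlapping intervals in each library. Blood endothelial-like cells were highest in both libraries, as for 5.93% of the 11692 genes. The lymphatic level was 29.5-fold and 49.7-fold above that of mural-like cells (14.4 and 9.504 CPM), the next in order. Fibroblast-like cells had 8.45 and 13.2 CPM and keratinocyte-like cells 2.42 and 6.38 CPM. In mast-like cells PLAT was at 0 in both libraries, where 0 of 62 and 0 of 79 thinned cells allow shares of up to 4.84% and 3.80% (3 cells). The upper ends of the exact binomial intervals of these shares were wider, at 5.78% and 4.56%. The activator PLAT and the inhibitor SERPINB2 were thus led by different lineages, whereas PLAU was present in both of them.

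Between the libraries, none of the 4 genes differed by 2-fold or more over all cells, as 2.83% of 14443 genes with 50 or more UMIs did. PLAU came nearest, at 502 CPM (495 to 510.0) and 811 CPM (801 to 819.9), with a log2 ratio, cryopreserved over fresh, of 0.69 (0.66 to 0.72), and 4.62% of genes had a higher ratio. SERPINB2 was at 161 and 191 CPM with a log2 ratio of 0.25 (0.19 to 0.30), although its level within keratinocyte-like cells gave -0.04 (-0.09 to 0.01). Over all deposited barcodes the ratio of SERPINB2 had the opposite sign, at -0.13 (-0.17 to -0.08). Keratinocyte-like cells made up 19.1% of fresh and 25.1% of cryopreserved cells. PLAUR gave 0.02 (-0.01 to 0.05) and PLAT -0.10 (-0.21 to 0.02), and the median of all genes was 0.02. Within lineages the sign for PLAT differed, as it was higher in the cryopreserved library in all 4 lineages with 50 or more of its UMIs. Below this cutoff PLAT was lower in cryopreserved mural-like cells (28 and 18 UMIs, 14.4 and 9.504 CPM). It was higher in macrophage-like, Langerhans or dendritic-like and T or NK-like cells. The share of all genes higher in all 4 lineages was not counted. Lineages of the same pair of libraries are not replicates. Blood endothelial-like cells held 4.86% and 3.39% of the UMIs of all genes, and lymphatic endothelial-like cells 2.51% and 1.63%.

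**Figure D4:**
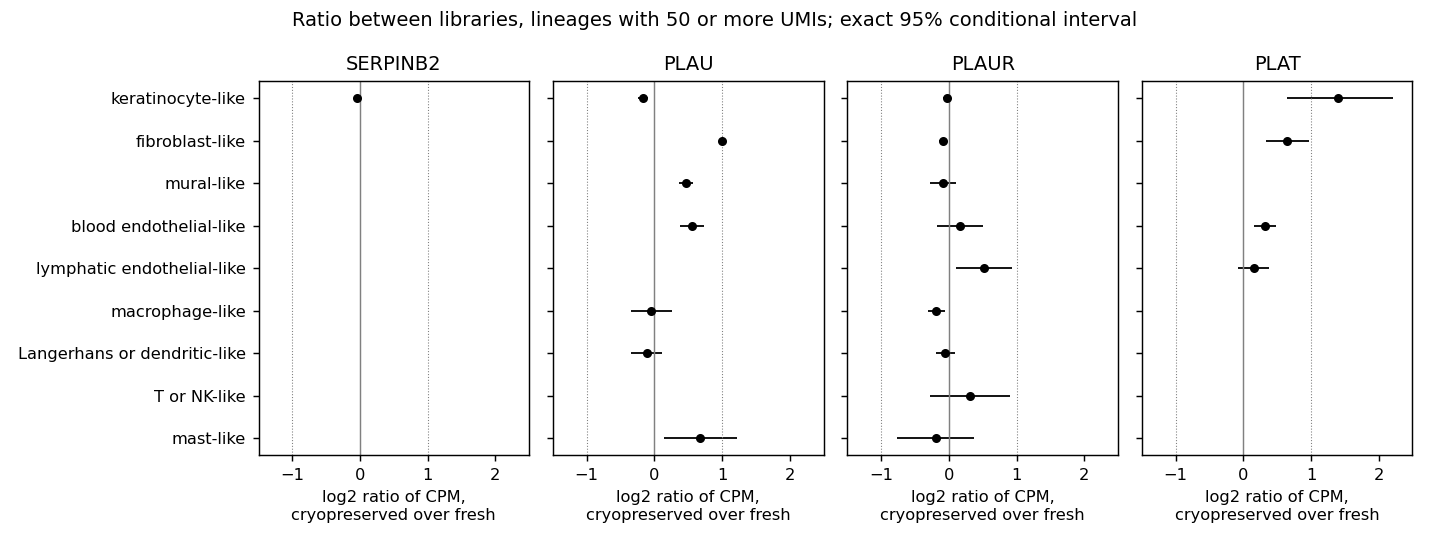
Log2 ratio of CPM, cryopreserved over fresh, in each lineage with 50 or more UMIs of the gene, with exact 95% conditional intervals; dotted lines mark 2-fold. PLAU in fibroblast-like cells lies on the 2-fold line at 1.004, PLAT in keratinocyte-like cells lies past it on few counts, and the other points lie within the lines.

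In fibroblast-like cells PLAU was 2.01-fold higher in the cryopreserved library, a log2 ratio of 1.004 (0.97 to 1.04), and 1.35% of 11843 genes were 2-fold or more higher in this lineage. All 7 fibroblast-like clusters were higher in the cryopreserved library: cluster 0 by a log2 ratio of 0.82 (0.76 to 0.87), cluster 4 by 0.86 (0.80 to 0.92), cluster 6 by 0.61 (0.55 to 0.67), cluster 1 by 0.34 (0.15 to 0.53) and cluster 5 by 0.26 (0.06 to 0.46). The clusters are parts of the same pair of libraries and are not replicates. How many of all genes were higher in all 7 was not counted. Clusters 18 and 21 gave 1.56 (1.13 to 2.01) and 1.23 (0.51 to 1.97) on 57 and 189 and on 27 and 47 UMIs, most of them in 5 cells of each library, where 2.78% and 6.86% of genes were 2-fold or more higher. Cluster 6, the highest for PLAU, was 10.6% of fresh and 15.9% of cryopreserved fibroblast-like cells. With the clusters weighted in both libraries as in the fresh one, the ratio was 0.74, and over all deposited barcodes it was also 0.74, so the 2-fold line was not reached under either. Thinned fibroblast-like cells with a PLAU UMI were 26.0% (23.5 to 28.5%) and 36.8% (34.4 to 39.3%), against 1.38% and 1.18% in T or NK-like cells. Of 10 handling-response genes measured in fibroblast-like cells, 9 were also higher in the cryopreserved library, with a median log2 ratio of 0.21 beside 0.00 for all genes. In keratinocyte-like cells, where PLAU was lower in the cryopreserved library, 8 of the 10 were higher, with a median of 0.26 beside 0.07. Their part in the PLAU result was not tested.

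PLAU was also higher in the cryopreserved library in mural-like cells, by a log2 ratio of 0.47 (0.36 to 0.58), in blood endothelial-like cells, by 0.56 (0.38 to 0.73), and in mast-like cells, by 0.67 (0.14 to 1.21). None of the 3 reached 2-fold, which 2.21% of genes did in either direction in mural-like cells, 2.92% in blood endothelial-like cells and 4.06% in mast-like cells. In mural-like cells 5 cells held 29.4% and 31.4% of the PLAU UMIs. The sum of the 7 fibroblast markers, all detected, went from 316 to 3188 CPM in blood endothelial-like cells and from 1942 to 2905 CPM in mural-like cells. Without cells in which these markers took over 1% of the UMIs (0 and 3 endothelial, 2 and 5 mural), the endothelial sums were 316 and 380 CPM and the PLAU ratio was 0.56 (0.39 to 0.74), and the mural ratio was 0.50 (0.40 to 0.61). Mast-like cells, where the marker sum went from 303 to 856 CPM and PLAU had 49 and 80 UMIs, were not recomputed in this way. In keratinocyte-like cells PLAU was lower in the cryopreserved library, by a log2 ratio of -0.17 (-0.24 to -0.09), where the median of all genes was 0.07. There cluster 2 gave -0.17 (-0.25 to -0.08), the only interval below 0 for PLAU among the 18 clusters with 50 or more UMIs. Clusters 13 and 19 gave -0.20 and -0.19, whereas cluster 9 gave 0.34 and cluster 10 gave 0.74 (0.36 to 1.13). Macrophage-like and Langerhans or dendritic-like cells gave -0.04 (-0.34 to 0.26) and -0.11 (-0.34 to 0.12).

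The point values of the SERPINB2 ratio between libraries had the same order as its level across keratinocyte-like clusters. The intervals of neighbours in this order overlapped at each step. Level and ratio come from the same counts, and the clusters are not replicates, so the order is a description only. The log2 ratio was 0.08 (0.02 to 0.14) in cluster 2, 0.02 (-0.20 to 0.25) in cluster 19, -0.19 (-0.35 to -0.03) in cluster 13, -0.43 (-0.70 to -0.15) in cluster 10 and -0.57 (-0.88 to -0.26) in cluster 9. In the low clusters few cells carried the counts, since in cluster 9 the 5 top cells held 60.9% of the SERPINB2 UMIs when fresh and 38.5% when cryopreserved. The lineage as a whole stayed within 2-fold, which 3.0% of its genes passed in either direction.

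PLAUR stayed within 2-fold in all 9 lineages. The share of genes past 2-fold in either direction was 2.45% in fibroblast-like, 5.01% in lymphatic endothelial-like, 3.74% in macrophage-like, 5.21% in Langerhans or dendritic-like and 3.4% in T or NK-like cells. The ratio was -0.03 (-0.08 to 0.01) in keratinocyte-like cells, -0.09 (-0.14 to -0.04) in fibroblast-like cells, -0.19 (-0.31 to -0.06) in macrophage-like cells and 0.52 (0.10 to 0.93) in lymphatic endothelial-like cells, the last on 98 and 101 UMIs. The lowest was keratinocyte cluster 13 at -0.83 (-1.02 to -0.64), where 45.8% of the fresh PLAUR UMIs and 26.3% of the cryopreserved ones lay in 5 cells.

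PLAT was higher in cryopreserved blood endothelial-like cells by a log2 ratio of 0.32 (0.16 to 0.48), with a per-cell range of 0 to 41 UMIs in the fresh and 0 to 25 in the cryopreserved library. Lymphatic endothelial-like cells gave 0.15 (-0.08 to 0.39) and fibroblast-like cells 0.65 (0.33 to 0.97). The lineage past 2-fold was the keratinocyte-like one, at 1.40 (0.64 to 2.21) on 19 and 67 UMIs, where 2.38% of genes were 2-fold or more higher. Of the clusters, 2 passed as well: keratinocyte cluster 10 at 1.15 (0.20 to 2.20) on 12 and 43 UMIs, beside 2.4% of genes, and fibroblast cluster 6 at 2.19 (1.23 to 3.31) on 10 and 71 UMIs, beside 1.7%. In cluster 6 a set of 5 cells held 50% of the fresh PLAT UMIs, and 5 cells held 66.2% of the cryopreserved ones.

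The genes closest to each of the 4 were sought by Pearson r of log2(CPM + 1) over the 24 clusters in both libraries (48 points that share libraries, depth and cell origin, and that are not replicates) among 11691 genes. For SERPINB2 the 5 closest included SERPINB5 (r = 0.94), the skin chemokine CCL27 (0.93) and RIPK4, a kinase of epidermal differentiation (0.93). PLAU had no gene as close, with CCL2, a monocyte-attracting chemokine, at 0.74, then CLTB (0.74), GSN, the actin-severing protein gelsolin (0.73), CEBPD (0.72) and AHCYL1 (0.72). PLAUR was nearest to PLEKHM2 (0.91), NPTN (0.89), RNH1 (0.88), DEGS1 (0.87) and ERI3 (0.87). Each cluster had the same weight, also the unnamed cluster 22 with 3 fresh and 21 cryopreserved cells. No PLAUR UMI was found there in either library, and the part of these points in the r values of PLAUR was not tested. PLAT was nearest to HOXD9 (0.82), the alarmin IL33 (0.81), STC1 (0.80), HOXD10 (0.80) and KANK3 (0.80). Among the 4 genes themselves r was 0.58 for PLAU with PLAUR, 0.27 for SERPINB2 with PLAUR, 0.16 for PLAU with PLAT, 0.12 for PLAUR with PLAT, 0.02 for SERPINB2 with PLAU and -0.18 for SERPINB2 with PLAT.

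PLG, the plasminogen gene, expressed mainly in liver, had 4 and 3 UMIs in all. The counts of genes past 2-fold that follow are for each gene's leading lineage alone. The share of all genes past 2-fold was 2.21% to 5.21% by lineage, so a count of 0 among a few genes is near that background. Of 10 other inhibitors found, 8 had 50 or more UMIs over both libraries, and 1 was past 2-fold in its leading lineage, lower in the cryopreserved library: A2M, a broad protease trap that is named here after its values were seen, with 24 and 7 UMIs in mural-like cells. These are fewer than the 50 UMIs in the lineage that the 2.21% of mural-like genes past 2-fold had. Over all cells 6 of these 8 were higher in the cryopreserved library, with a median log2 ratio of 0.08 beside 0.02 for all genes. Of 14443 genes with 50 or more UMIs, 50.4% had a ratio above the 0.02 of PLAUR, so at least this share was higher. The counts of higher and lower genes here and in the sets that follow are too small to be told apart from that background. SERPINE2, a cell-bound inhibitor of urokinase and thrombin, led in keratinocyte-like cells at 158 and 179 CPM and was highest in cluster 10 (263 and 273 CPM). SERPING1, the C1 inhibitor, led in fibroblast-like cells at 669 and 826 CPM.

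Genes that bind plasminogen at the surface were led by different lineages. ANXA2, an annexin that forms a plasminogen-binding complex with S100A10, led in keratinocyte-like cells at 2206 and 2335 CPM, with cluster 13 highest at 3162 and 3308 CPM. S100A10 led in mast-like cells at 2224 and 3267 CPM and stood at 1837 and 2618 CPM in fibroblast-like cells. All 5 of the set had 50 or more UMIs, and 0 were past 2-fold in the leading lineage. Over all cells 4 were higher in the cryopreserved library, as were at least 50.4% of all genes. The median log2 ratio of the set was 0.31, beside 0.02 for all genes. Of 7 clearance and partner genes found (LRP1 was not found by symbol), 0 were past 2-fold in the leading lineage, and over all cells 3 were higher and 4 lower, with a median of -0.04. MRC2, a collagen receptor that binds the urokinase receptor, was in fibroblast-like cells at 359 and 360.2 CPM, and ITGAM, an integrin partner of PLAUR, in macrophage-like cells at 143 and 147 CPM. Of 6 substrate and product genes with 50 or more UMIs, 0 were past 2-fold in the leading lineage, and over all cells 3 were higher and 3 lower, with a median of 0.01.

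Besides SERPINB6 and SERPINB8, which were counted with the inhibitors, 8 other clade B serpins were found. Of these, 5 had 50 or more UMIs, 0 were past 2-fold in the leading lineage, 3 were higher and 2 lower over all cells, and the median log2 ratio was 0.16. SERPINB5, SERPINB7 and SERPINB10 led in keratinocyte-like cells. SERPINB5 (maspin) was at 842 and 774 CPM there and less graded than SERPINB2, with 996 and 936 CPM in cluster 2 and 600.5 and 541 CPM in cluster 10, its lowest. SERPINB10, the neighbouring gene on chromosome 1, was at 265 and 292 CPM in keratinocyte-like cells, with 323 and 352 CPM in cluster 2, 196 and 357 CPM in cluster 19, 288 and 325 CPM in cluster 13, 234 and 282 CPM in cluster 9 and 157 and 138 CPM in cluster 10. In cluster 9 SERPINB10 thus kept much of its level where SERPINB2 was lowest. SERPINB1, an inhibitor of leukocyte proteases, led in Langerhans or dendritic-like cells at 572 and 529 CPM, and SERPINB9, the granzyme B inhibitor, in T or NK-like cells at 54.8 and 65.0 CPM. SERPINB7 had 13.8 and 12.6 CPM in keratinocyte-like cells. SERPINB12 and SERPINB13 had at most 2 UMIs in a library, and SERPINB3 and SERPINB4 were not found by symbol.

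**Figure D5:**
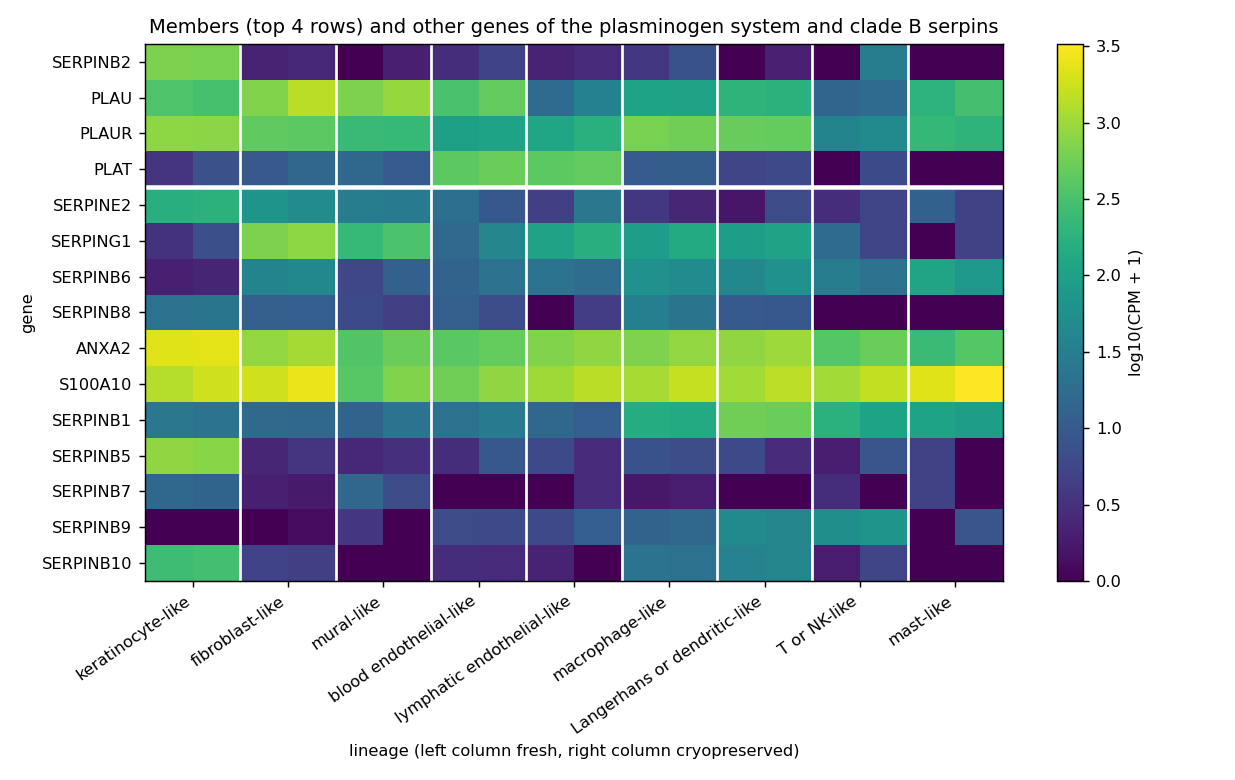
Level as log10(CPM + 1) of the 4 genes (top) and of 11 other plasminogen system genes and clade B serpins, by lineage, with the fresh library in the left and the cryopreserved library in the right column of each pair. Read along a gene, SERPINB5 and SERPINB10 share the keratinocyte-like maximum of SERPINB2.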

How the data were processed

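Droplet scRNA-seq of 1 fresh and 1 cryopreserved library was analysed. Per the labels and the methods, the authors mapped reads to Sscrofa11.1 with an Ensembl annotation by Cell Ranger 4.0.0 (STAR 2.5.1b), and the deposited matrices hold UMI counts per gene and barcode, not normalized. Cells with at most 4500 genes, 30000 UMIs and 10% of UMIs on 13 mitochondrial genes were kept. Scrublet (scanpy 1.11.5) called 10 and 8 cells, too few to have worked, so no doublets were removed. Libraries were integrated and clustered in Seurat 5.3.0 (R 4.3.3) with 2000 features, 30 dimensions and resolution 0.8. A cluster was named for the marker list with the highest mean fold over the median cluster if 3 or more markers were in 10% of its cells and 2-fold or more. It was left unnamed if its 10 top genes held more markers of another list. The same was done if it had few UMIs per cell and its top genes held none of its own markers. These rules were set after seeing the clusters. Levels are CPM with TMM factors of the whole libraries (edgeR 4.0.16), and the other scaling was by DESeq2 1.42.0. Genes counted between libraries had 50 or more UMIs in both together, and pattern searches used 200. Intervals came from scipy 1.17.1. Those of ratios were tried on simulated Poisson counts, the model they assume, which cannot show how they perform where few cells hold most UMIs. Symbols of 772 features came from the RefSeq reference table.

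The 4 genes, the lists and the markers were chosen with earlier results of these data known. Other system genes and clade B serpins were named where past 2-fold in the leading lineage with 200 UMIs, highest or lowest of their group in a lineage, or direct partners (SERPINE2, ANXA2, S100A10, PLG, LRP1), with the 5 most similar genes of each member. Some genes that met this rule are not reported here.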

Additional observations from a re-analysis of the deposited data

Results flagged for a closer look

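The PLAU log2 ratio, cryopreserved over fresh, had opposite signs in the largest lineages: 1.004 in fibroblast-like and -0.17 in keratinocyte-like cells. The PLAUR ratio was 0.52 in lymphatic endothelial-like and -0.19 in macrophage-like cells. Each pair was listed because its single libraries moved in opposite ways, and the differences were not tested, since each lineage had 1 library per condition.

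Barcodes outside the maxima for genes, UMIs or mitochondrial share, 1604 fresh and 637 cryopreserved, were left out of the comparisons and also held UMIs of the 4 genes, above the limit that a count of 0 allows. Their levels were 296 CPM fresh and 264 CPM cryopreserved for SERPINB2, 603 and 509.6 CPM for PLAU, 500.04 and 541 CPM for PLAUR, and 25.4 and 22.4 CPM for PLAT. PLAU was thus lower in the cryopreserved library among these barcodes, whereas it was higher there among the kept cells (502 and 811 CPM).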

How the results depend on the processing

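Ratios and shares were counted as moved when they left the counting interval of the main value. Lists of similar genes had no such interval. Of the values recomputed under other settings, 110 were counted as the same, 70 as moved, and 1 whose interval excluded 0 changed sign: SERPINB2 over all cells gave -0.13 over all deposited barcodes, against 0.25. Ratios with an interval that included 0 changed sign as well, for PLAUR over all cells without the TMM factor and, in the leading lineage, for SERPINB2 and PLAUR without the mitochondrial limit and under the fresh cluster shares and for PLAUR without its 5 top cells. No paired analysis was possible because each condition had 1 library, and no library could be left out. The weighting of clusters or lineages, and the PLAU ratios without cells rich in fibroblast markers, were chosen after seeing the data.

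Log2 ratios moved as follows. Over all cells PLAU gave 0.65 and PLAUR -0.017 without the TMM factor; PLAU gave 0.48 over all deposited barcodes and 0.66 without the highest Scrublet scores; and without the mitochondrial limit PLAU gave 0.74 and PLAUR 0.055. In the leading lineage PLAU gave 0.97 without the TMM factor, 0.74 over all barcodes, 1.04 without its 5 top cells and 0.74 with the fresh cluster shares. SERPINB2 gave -0.19 over all barcodes, and without the mitochondrial limit SERPINB2 gave 0.014 and PLAUR 0.032, with 0.015 for PLAUR under the fresh cluster shares. The cause was not tested.

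The percent of UMIs in the leading lineage, fresh then cryopreserved, moved over all barcodes to 93.3 and 94.1 for SERPINB2, 71.8 and 77.5 for PLAU, 44.9 and 46.8 for PLAUR and 49.3 (fresh) for PLAT. With equal weight to each lineage it was 98.95 and 93.5 for SERPINB2, 27.8 and 38.0 for PLAU, 26.4 and 26.8 for PLAUR and 48.2 (fresh) for PLAT. Without the highest Scrublet scores it was 99.7 (cryopreserved) for SERPINB2, 67.7 and 78.0 for PLAU and 41.4 and 47.2 for PLAUR. Without the 5 top cells it was 67.4 and 77.9 for PLAU and 36.8 and 44.0 for PLAUR. Merging without integration gave 98.4 for cryopreserved SERPINB2, and resolution 0.4 gave 78.1 for cryopreserved PLAU.

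Detection followed depth. The values are the percent of cells with a UMI in each gene's leading lineage, thinned to 2000 UMIs and then unthinned. In keratinocyte-like cells SERPINB2 gave 40.5 and 58.3 fresh and 42.8 and 57.5 cryopreserved. PLAUR in the same lineage gave 46.2 and 74.9 fresh and 48.5 and 73.5 cryopreserved. PLAU in fibroblast-like cells gave 36.3 and 60.8 fresh and 47.4 and 68.1 cryopreserved. PLAT in blood endothelial-like cells gave 39.3 and 55.7 fresh and 37.1 and 40.7 cryopreserved.

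Of the 5 most similar genes, a pseudocount of 10 kept 3 for SERPINB2, 2 for PLAU and 1 for PLAT, and lineages in place of clusters kept 2 for SERPINB2, 0 for PLAU, 0 for PLAUR and 1 for PLAT. The count of genes past 2-fold rose from 409 to 4676 over all cells with a minimum of 1 UMI and was 125 with 200; in blood endothelial-like cells it was 164, 5427 and 28, in fibroblast-like cells 290, 5114 and 71, and in keratinocyte-like cells 321, 5199 and 84.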
